A study of Mus musculus with 6 samples.

Results

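The genes described are 33 markers of the macrophages of the brain, measured by bulk RNA sequencing of the cerebral cortex of mouse embryos. They were chosen by symbol and fall into 3 classes: 10 border macrophage genes, 9 microglia genes and 14 myeloid genes that both cell types share. All 33 were found, each on a single row, among the 55401 gene rows of the deposited table. Groups of C57BL/6 embryos at embryonic day 18 were compared, with 3 libraries from Csmd3-/- embryos (Csmd3 knockout, labelled HOMO) and 3 from wild-type embryos. The Csmd3 product is a transmembrane protein built of CUB and sushi repeats. Both groups came from crosses of Csmd3 heterozygous parents, so nothing in the labels sets them apart but the genotype. The sources used here give neither the part of Csmd3 that was removed nor the number of embryos behind a library. The p-values below therefore measure the spread between these libraries, which may be in part technical.

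Macrophages of the brain arise from the yolk sac and settle in separate niches. Microglia lie within the tissue among neurons and glia. Border macrophages lie in the meninges, in the choroid plexus and along blood vessels, where they take up proteins and debris. Both need the receptor encoded by Csf1r and the transcription factor PU.1, encoded by Spi1. Microglia are known for purine receptors and for Sall1 and Tmem119, and border macrophages for scavenger and lectin receptors such as Mrc1, Lyve1 and Cd163.

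PU.1 binds DNA at a purine-rich core that reads GAGGAA. That word, on either strand, was searched in RefSeq promoter windows (GRCm38.p6, 250 bases before to 50 after each start) of the 24 members with an entry. Gpr34, Spi1, Tyrobp, Adgre1, Clec10a, Csf1r, Tmem119, Lyve1 and Cd14 had none. Windows of 6 genes are shown, cut to the bases before the annotated exons, because they cover all 3 classes. Capitals mark GAGGAA or its reverse complement TTCCTC, and the strand is that of the gene.
Mrc1, chr2:14229164-14229391, plus strand: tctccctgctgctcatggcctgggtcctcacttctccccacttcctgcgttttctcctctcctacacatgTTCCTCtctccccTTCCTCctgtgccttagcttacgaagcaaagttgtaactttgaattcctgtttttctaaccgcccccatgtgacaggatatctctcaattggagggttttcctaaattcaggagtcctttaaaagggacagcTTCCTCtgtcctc
F13a1, chr13:37050245-37050494, minus strand: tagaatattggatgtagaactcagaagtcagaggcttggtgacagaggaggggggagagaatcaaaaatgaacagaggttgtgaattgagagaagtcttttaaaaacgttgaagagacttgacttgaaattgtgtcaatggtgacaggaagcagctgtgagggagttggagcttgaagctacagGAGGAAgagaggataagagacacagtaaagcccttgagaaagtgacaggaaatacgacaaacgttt
Pf4, chr5:90772185-90772434, plus strand: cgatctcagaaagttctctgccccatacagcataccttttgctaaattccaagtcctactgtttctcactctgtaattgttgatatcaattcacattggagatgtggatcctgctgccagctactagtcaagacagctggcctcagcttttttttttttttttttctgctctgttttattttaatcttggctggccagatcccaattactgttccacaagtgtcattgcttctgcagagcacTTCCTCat
P2ry13, chr3:59210883-59211132, minus strand: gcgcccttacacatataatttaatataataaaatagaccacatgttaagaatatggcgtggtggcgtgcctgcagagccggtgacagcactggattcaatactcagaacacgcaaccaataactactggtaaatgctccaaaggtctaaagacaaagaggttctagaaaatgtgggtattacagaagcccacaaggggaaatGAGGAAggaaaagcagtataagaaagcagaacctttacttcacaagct
Olfml3, chr3:103738002-103738251, minus strand: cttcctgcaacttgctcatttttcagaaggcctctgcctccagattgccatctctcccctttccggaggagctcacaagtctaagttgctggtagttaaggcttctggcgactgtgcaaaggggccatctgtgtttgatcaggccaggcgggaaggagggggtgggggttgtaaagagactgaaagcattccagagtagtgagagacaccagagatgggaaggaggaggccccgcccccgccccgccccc
Ctss, chr3:95526536-95526785, plus strand: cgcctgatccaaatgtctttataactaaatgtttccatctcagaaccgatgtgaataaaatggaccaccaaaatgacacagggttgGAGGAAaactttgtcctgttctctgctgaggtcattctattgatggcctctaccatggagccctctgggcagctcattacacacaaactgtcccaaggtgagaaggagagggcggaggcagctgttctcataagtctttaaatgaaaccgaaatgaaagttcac
The printed stretch of Mrc1 held 3 matches, that of Olfml3 none, and the others 1 each. Over the full windows, the word stood in 17 of 30 member windows (56.7%), against 9289 of 32851 windows of all genes (28.3%). By gene, it was found for 6 of 8 border macrophage genes, 3 of 7 microglia genes and 6 of 9 shared genes with an entry. Over all genes with an entry it was found for 8446 of 27025 (31.3%). The longer word GAGGAAGT, which contains the first, stood in 3 of 30 member windows, against 3.20% of all windows. These are counts of letters and say nothing of where a factor was bound.

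The deposited values are whole-number estimated gene counts, in which a single fragment adds about 4. They are given here as CPM, the count relative to a library size scaled by the TMM method. Library totals ran from 54244288 to 68269607 counts, and 24460 to 25122 genes had a count above 0. Csmd3 itself had 9.82, 10.3 and 9.80 CPM in knockout libraries 1 to 3, against 16.6, 13.2 and 15.1 CPM in wild-type libraries 1 to 3. It fell by 0.59 on the log2 scale in knockout (SE 0.13, adjusted p = 0.0233 by the quasi-likelihood test of edgeR). The cortical neuron markers Tubb3, Snap25, Neurod6 and Tbr1 were present in all 6 libraries. The markers of choroid plexus epithelium summed to 9.55, 45.8 and 487 CPM in knockout libraries 1 to 3, against 0.775 to 1.29 CPM in wild type. Every knockout library thus lay above wild type in this sum, and knockout libraries 2 and 3 stood furthest above it. All 10 meningeal fibroblast markers rose in knockout, and their sum was 727, 535 and 645 CPM in knockout, against 25.6, 24.0 and 18.0 CPM in wild type. Because these are bulk samples, fewer cells of a type and less RNA per cell cannot be told apart.

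Of the 33 members, 32 passed the filter on low counts and were tested, and 20 of these rose in knockout while 0 fell by the edgeR test. All 32 had a positive log2 fold change, so that 0 were lower at an unadjusted p under 0.05 and by DESeq2 or limma-voom as well. Among all 19844 genes tested, 5.21% rose and 2.53% fell. Rises were called for 9 of 10 border macrophage genes, 5 of 9 microglia genes and 6 of 13 tested shared genes. The median log2 fold change of the tested genes was 5.64 in the border macrophage class, 0.70 in the microglia class and 1.11 in the shared class, beside 0.00 over all genes tested. Knockout and wild-type libraries did not overlap for 9 border macrophage, 6 microglia and 9 shared genes, all higher in knockout, against 15.6% of all genes tested. Lyve1, Pf4, Cd163, Cbr2, Ms4a7, Folr2 and Clec10a passed the filter only through the knockout libraries, so the count and median of the border macrophage class describe those genes and carry no weight as support.

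**Figure D1:**
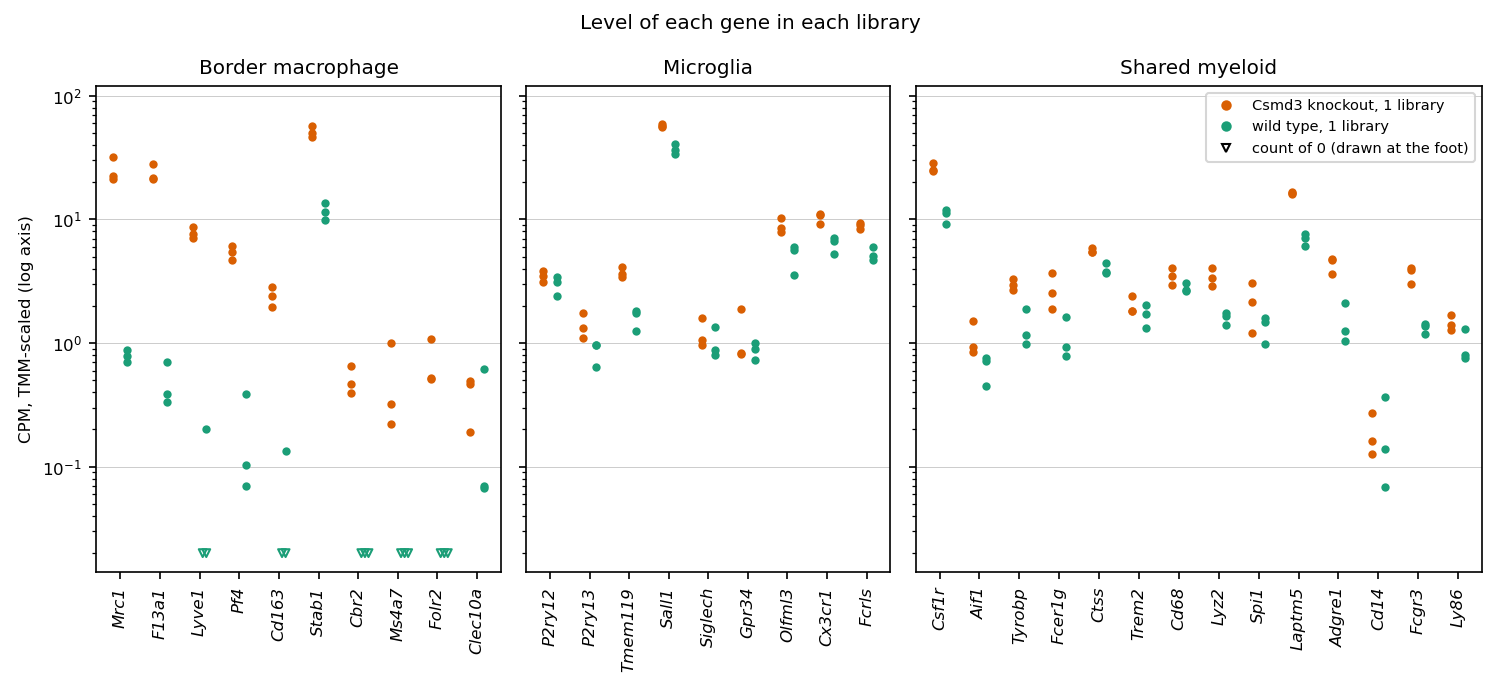
Level of each of the 33 genes in each library, in TMM-scaled CPM on a log axis, with 3 Csmd3 knockout points left of 3 wild-type points for every gene and counts of 0 drawn as triangles at the foot. In the border macrophage panel Mrc1 sits between 21.3 and 32.1 CPM in knockout and between 0.704 and 0.873 CPM in wild type, whereas P2ry12 in the microglia panel has overlapping groups at 3.14 to 3.84 CPM in knockout and 2.40 to 3.42 CPM in wild type.

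Genes of border macrophages were the members with the largest differences. Mrc1 (ENSMUSG00000026712.3, chr2:14229392-14332057, plus strand), the mannose receptor that takes up glycoproteins, had 22.5, 21.3 and 32.1 CPM in Csmd3 knockout libraries 1 to 3, against 0.704, 0.793 and 0.873 CPM in wild-type libraries 1 to 3. Every knockout library lay far above every wild-type library, and the log2 fold change was 5.0 (SE 0.21, edgeR adjusted p = 5.87e-06). F13a1 (ENSMUSG00000039109.16, chr13:36867178-37050244, minus strand), the catalytic A subunit of coagulation factor XIII, had 21.6, 21.1 and 28.1 CPM in knockout, against 0.385, 0.707 and 0.332 CPM in wild type. The groups again stood apart, with library 3 the highest in knockout, and the log2 fold change was 5.63 (SE 0.28, edgeR adjusted p = 1.39e-05).

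Lyve1, a hyaluronan receptor that lymphatic endothelium also carries, had 7.64, 7.06 and 8.70 CPM in knockout, against 0.201, 0 and 0 CPM in wild type. These are 1454 deposited counts over the knockout libraries, against 12 over the wild-type libraries, all of them in wild-type library 1. The ratio of levels was 113, and its exact 95% interval, by Clopper-Pearson on fragments, was 38.5 to 552, which covers counting error only. Cd163, the scavenger receptor for haemoglobin bound to haptoglobin, had 2.40, 1.96 and 2.83 CPM in knockout, against 0.134, 0 and 0 CPM in wild type. Its ratio was 52.1 with an interval of 14.1 to 437, and again only wild-type library 1 held any count. The edgeR adjusted p was 0.0107 for Lyve1 and 0.00994 for Cd163. Pf4, a chemokine that platelets and border macrophages both make, had 4.66, 5.47 and 6.06 CPM in knockout, against 0.385, 0.103 and 0.0698 CPM in wild type. Its log2 fold change was 4.83 (SE 0.51, edgeR adjusted p = 0.00109), and wild-type library 1 was again the highest of its group.

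Cbr2, Ms4a7 and Folr2 had no count in any wild-type library. Cbr2, a carbonyl reductase, had 0.393, 0.648 and 0.469 CPM in knockout, at least 7.31-fold higher than a floor of 3 fragments over the wild-type group (edgeR adjusted p = 0.0107). Folr2, the folate receptor beta of macrophages, had 0.509, 0.521 and 1.08 CPM in knockout and was at least 9.96-fold higher (edgeR adjusted p = 0.0071). Ms4a7, a membrane protein of the MS4A family, had 0.320, 0.221 and 0.992 CPM in knockout and was at least 7.08-fold higher (edgeR adjusted p = 0.0206). Knockout library 3 held most of the Ms4a7 counts. With these 3 genes set at their bounds, the median log2 fold change of the class was 4.07.

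Stab1, the scavenger receptor stabilin-1, which endothelium also makes, differed least among the 9 genes that rose. It had 49.8, 46.6 and 56.7 CPM in knockout, against 13.7, 11.5 and 9.93 CPM in wild type, with no overlap and a log2 fold change of 2.13 (SE 0.14, edgeR adjusted p = 3.45e-05). It was also the gene of the class with the highest level in wild type, where it made up 86.6% of the summed CPM of the class, against 43.6% in knockout. Clec10a, a lectin for galactose-type sugars, was the 1 member of the class that did not pass the test. Its levels of 0.495, 0.190 and 0.469 CPM in knockout lay among the 0.0670, 0.620 and 0.0698 CPM of wild type (log2 fold change 0.60, SE 0.91, edgeR adjusted p = 0.766).

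Knockout library 3 was the highest of the knockout libraries for 8 of the 10 border macrophage genes. The calls of Mrc1, F13a1, Pf4, Cd163 and Stab1 held with any 1 library left out. Without knockout library 3 the count of called genes fell to 5 of 10, since Lyve1 (adjusted p = 0.0504), Cbr2 (0.0531), Ms4a7 (0.12) and Folr2 (0.0504) no longer passed the edgeR test. Lyve1 was also lost without knockout library 1 (0.053), Cbr2 without knockout library 2 (0.0567), and Ms4a7 without knockout library 1 (0.0526), wild-type library 1 (0.0589) or wild-type library 2 (0.0588). With wild-type library 1 left out, the fitted log2 fold changes were 11.88 for Lyve1, 10.18 for Cd163 and 5.91 for Pf4, and the median of the class was 6.92. With knockout libraries 2 and 3 both left out, 4 of the 10 were called.

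**Figure D2:**
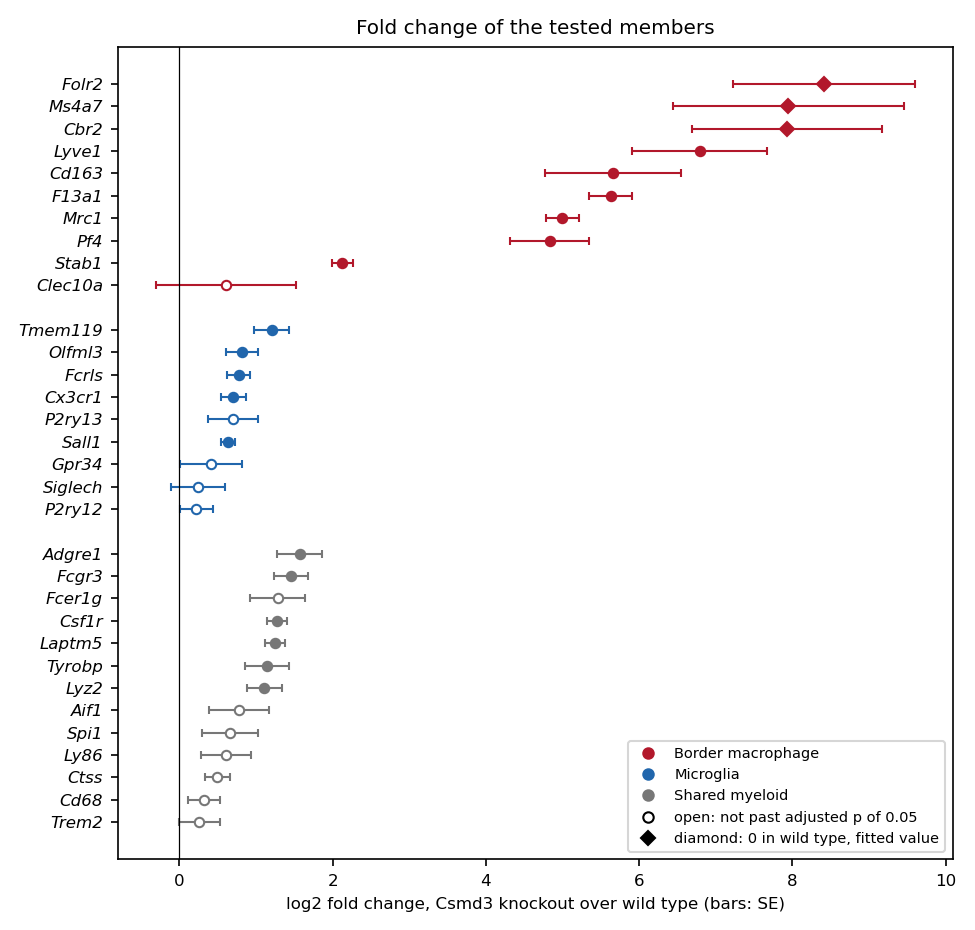
Log2 fold change, Csmd3 knockout over wild type, of the 32 tested members with its SE as a bar, grouped by class; filled symbols passed an edgeR adjusted p of 0.05 and diamonds mark the 3 genes with no wild-type count, whose position is a fitted value. Border macrophage genes other than Clec10a run from 2.13 upward, and the microglia genes from 0.22 for P2ry12 to 1.21 for Tmem119.

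Genes of microglia differed far less. Tmem119, a membrane protein by which microglia are often told from other macrophages, had 4.13, 3.41 and 3.61 CPM in Csmd3 knockout, against 1.26, 1.81 and 1.76 CPM in wild type. Its log2 fold change of 1.21 (SE 0.23, edgeR adjusted p = 0.0137) was the largest of the class, with no overlap of the groups. Sall1, a zinc finger factor that microglia need for their identity and that neural progenitors also express, had 55.8, 57.1 and 59.2 CPM in knockout, against 34.0, 36.4 and 40.6 CPM in wild type. It rose by 0.63 on the log2 scale (SE 0.09, edgeR adjusted p = 0.00295).

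Fcrls, an Fc receptor-like protein of mouse microglia, had 8.94, 8.42 and 9.44 CPM in knockout, against 4.66, 6.00 and 5.03 CPM in wild type (log2 fold change 0.77, SE 0.15, edgeR adjusted p = 0.0162). Cx3cr1, the receptor for the neuronal chemokine fractalkine, had 11.1, 9.10 and 10.8 CPM in knockout, against 7.07, 6.74 and 5.22 CPM in wild type (0.71, SE 0.16, adjusted p = 0.0295). Olfml3, a secreted olfactomedin-like protein, had 10.3, 7.93 and 8.52 CPM in knockout, against 3.57, 5.64 and 5.94 CPM in wild type (0.82, SE 0.21, adjusted p = 0.0459). In all 3 genes the knockout libraries lay above the wild-type libraries.

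The purine receptors of microglia did not pass the test. P2ry12, an ADP receptor that steers microglial processes, had 3.46, 3.84 and 3.14 CPM in knockout, against 3.13, 2.40 and 3.42 CPM in wild type, with overlapping groups (log2 fold change 0.22, SE 0.21, edgeR adjusted p = 0.608). P2ry13, a related ADP receptor, had 1.75, 1.11 and 1.33 CPM in knockout, against 0.972, 0.965 and 0.646 CPM in wild type. Its groups did not overlap, yet the log2 fold change of 0.70 (SE 0.33) had an adjusted p of 0.252 in the edgeR fit. Siglech, a lectin for sialic acid, had 1.06, 0.964 and 1.59 CPM in knockout, against 0.804, 1.36 and 0.873 CPM in wild type (0.25, SE 0.35, edgeR adjusted p = 0.749). Gpr34, a receptor for lysophosphatidylserine, had 0.815, 0.837 and 1.88 CPM in knockout, against 1.01, 0.896 and 0.733 CPM in wild type (0.42, SE 0.40, edgeR adjusted p = 0.618). The highest Gpr34 level was that of knockout library 3, and without that library the log2 fold change was -0.08.

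Sall1 was the only microglia gene whose call held with any 1 library left out, so the count of 5 fell as low as 1. In the edgeR fit Tmem119 was lost without knockout library 1 or 3 (adjusted p = 0.0626 and 0.0537). Fcrls was lost without knockout library 1, knockout library 3 or wild-type library 1 (0.0597, 0.073 and 0.0648), and Cx3cr1 without knockout library 1, knockout library 3, wild-type library 1 or wild-type library 2 (0.109, 0.112, 0.0594 and 0.0733). Olfml3 was kept only without wild-type library 3 (0.0339), and its adjusted p ran up to 0.162 without knockout library 1. With knockout libraries 2 and 3 both left out, 0 of the 9 were called.

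Myeloid genes that both cell types share lay between the other classes. Csf1r, the receptor on which microglia and border macrophages depend for survival, had 25.0, 24.6 and 28.8 CPM in Csmd3 knockout, against 9.23, 11.9 and 11.3 CPM in wild type. Its log2 fold change was 1.28 (SE 0.13, edgeR adjusted p = 0.000529). Laptm5, a lysosomal membrane protein of blood-lineage cells, had 15.9, 16.5 and 16.6 CPM in knockout, against 7.04, 6.05 and 7.58 CPM in wild type (1.25, SE 0.13, edgeR adjusted p = 0.00055). The knockout values of Laptm5 varied by only 2.10% of their mean (coefficient of variation, n = 3 libraries).

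Adgre1, the adhesion receptor bound by the F4/80 antibody, had 4.82, 4.71 and 3.63 CPM in knockout, against 2.13, 1.24 and 1.05 CPM in wild type (log2 fold change 1.57, SE 0.29, edgeR adjusted p = 0.0125). Fcgr3, an activating receptor for IgG, had 3.03, 3.92 and 4.04 CPM in knockout, against 1.42, 1.19 and 1.38 CPM in wild type (1.46, SE 0.23, edgeR adjusted p = 0.0053). The groups of both genes stood apart. Tyrobp, the adaptor that carries signals from Trem2 and other receptors, had 3.32, 2.95 and 2.71 CPM in knockout, against 0.988, 1.90 and 1.17 CPM in wild type (1.15, SE 0.29, edgeR adjusted p = 0.041). Lyz2, lysozyme, had 3.35, 4.06 and 2.89 CPM in knockout, against 1.39, 1.74 and 1.64 CPM in wild type (1.11, SE 0.23, edgeR adjusted p = 0.0192). Lyz2 is uncertain in so far as reads can be split with its near-identical neighbour Lyz1.

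The other shared genes did not pass the test. Fcer1g, the gamma chain of Fc receptors, had 2.56, 1.88 and 3.68 CPM in knockout, against 0.921, 1.62 and 0.786 CPM in wild type (log2 fold change 1.28, SE 0.36, edgeR adjusted p = 0.0618). Ctss, the lysosomal protease cathepsin S, had 5.50, 5.42 and 5.90 CPM in knockout, against 3.77, 4.46 and 3.70 CPM in wild type (0.49, SE 0.16, adjusted p = 0.11). In both genes every knockout library lay above every wild-type library. Trem2, a lipid-sensing receptor of microglia and other macrophages, had 1.80, 1.83 and 2.42 CPM in knockout, against 1.32, 1.71 and 2.02 CPM in wild type (0.26, SE 0.27, edgeR adjusted p = 0.64). Cd68, a lysosomal glycoprotein, had 2.94, 4.08 and 3.46 CPM in knockout, against 2.66, 2.65 and 3.05 CPM in wild type (0.32, SE 0.21, edgeR adjusted p = 0.413). The groups of Trem2 and of Cd68 overlapped. Spi1, which encodes PU.1, had 2.14, 1.22 and 3.05 CPM in knockout, against 1.59, 1.48 and 0.978 CPM in wild type (0.66, SE 0.36, edgeR adjusted p = 0.339). Aif1, an actin-binding protein used to stain microglia, and Ly86, a partner of a Toll-like receptor homologue, had log2 fold changes of 0.77 and 0.61 with adjusted p of 0.29 and 0.321 in the edgeR fit. Cd14, a co-receptor for bacterial lipopolysaccharide, was the only member too low to test, with 11, 8 and 15 deposited counts in knockout, against 22, 4 and 8 in wild type.

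Csf1r, Laptm5 and Fcgr3 kept their calls with any 1 library left out. The call of Adgre1 was lost without wild-type library 2 (adjusted p = 0.058), that of Lyz2 without knockout library 1, knockout library 2, wild-type library 1 or wild-type library 2 (0.0635, 0.0886, 0.0742 and 0.051), and that of Tyrobp without any library but wild-type library 2 (up to 0.136, without knockout library 1). With wild-type library 2 left out, Fcer1g passed the edgeR test (adjusted p = 0.0486). With knockout libraries 2 and 3 both left out, 2 of the 13 tested were called.

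The balance between the classes was read within each library from summed CPM. The 10 border macrophage genes summed to 110, 105 and 138 CPM in Csmd3 knockout, against 15.6, 13.7 and 11.3 CPM in wild type, so that the mean of 118 ± 17.4 CPM was 8.71 times the wild-type mean of 13.5 ± 2.15 CPM (SD, n = 3 each). Microglia genes summed to 96.6 ± 3.47 CPM in knockout and 60.9 ± 4.01 CPM in wild type, a ratio of 1.58. Shared genes summed to 75.6 ± 3.51 CPM in knockout and 36.1 ± 1.98 CPM in wild type, a ratio of 2.09. For every class the knockout libraries lay above the wild-type libraries.

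The border macrophage sum divided by the microglia sum was 1.13, 1.13 and 1.38 in knockout, against 0.276, 0.220 and 0.176 in wild type, a 5.43-fold difference of the means. Sums of CPM weight long genes more, so they do not rank the classes. With each gene taken per kilobase of exon, a choice made after seeing the data, the ratio was 0.950, 1.02 and 1.18 in knockout, against 0.159, 0.115 and 0.0851 in wild type, an 8.77-fold difference. Stab1 and Sall1, which cells other than macrophages also express, took 43.6% and 59.5% of their class sums in knockout, against 86.6% and 60.6% in wild type. With both left out, a choice made after seeing the data, the ratio was 1.46, 1.64 and 2.01 in knockout, against 0.0835, 0.0862 and 0.0569 in wild type, a 22.5-fold difference. The single pair Mrc1 over P2ry12 gave 6.51, 5.55 and 10.2 in knockout, against 0.225, 0.331 and 0.255 in wild type.

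**Figure D3:**
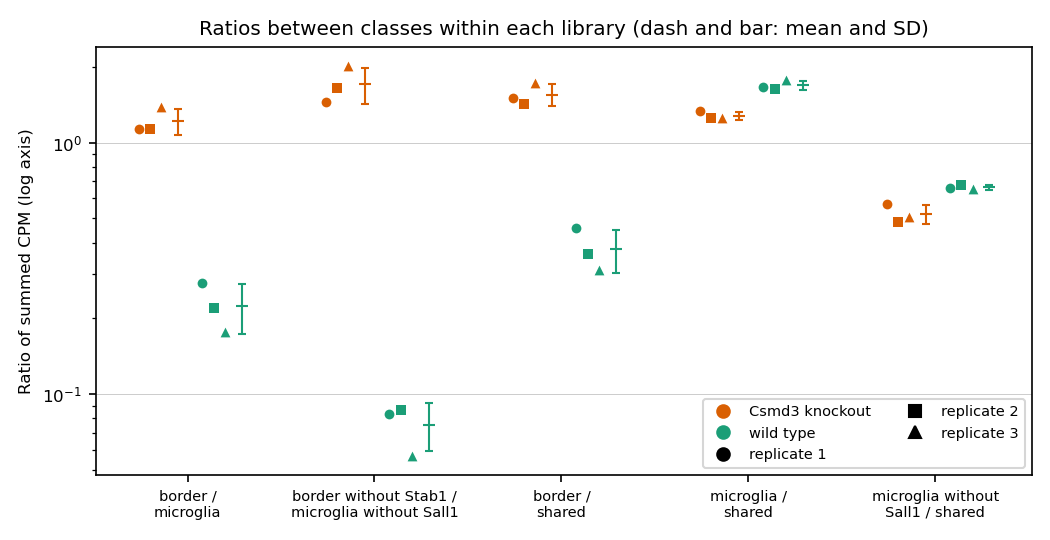
Ratios of summed CPM between the classes within each library on a log axis, with Csmd3 knockout left of wild type, symbols for replicates 1 to 3, and a dash and bar for mean and SD over 3 libraries. The border to microglia ratio is 1.13 to 1.38 in knockout and at most 0.276 in wild type, while the microglia to shared ratio is 1.25 to 1.33 in knockout and 1.63 to 1.77 in wild type.

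The genes were next compared per transcript of the shared class. The test was repeated with the library size replaced by the summed count of the 14 shared genes, which was 5028, 4687 and 4415 in knockout, against 2035, 2208 and 2075 in wild type. On that scale most genes of the cortex are lower in knockout, because the shared sum is higher there: 1.57% of all genes tested rose and 73.9% fell. The same 9 border macrophage genes were called, all higher. The second fit used the same filtered genes, so the count and median of the class again carry no weight as support. Per 1000 shared counts, Mrc1 had 308, 288 and 403 counts in knockout, against 20.6, 20.8 and 24.1 in wild type (log2 fold change 3.93, SE 0.20, edgeR adjusted p = 1.33e-06). F13a1 had a log2 fold change of 4.57 on this scale (SE 0.25, adjusted p = 1.33e-06 in the edgeR fit), and Stab1 one of 1.05 (SE 0.15, adjusted p = 3.55e-05). The median of the class was 4.58, or 3.0 with the genes at 0 in wild type set at their bounds.

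Relative to the shared genes, 0 microglia genes were higher in knockout by edgeR, DESeq2 or limma-voom, also at an unadjusted p under 0.05, and 2 of 9 fell by the edgeR test, a smaller share than the 73.9% of all genes. P2ry12 had 47.3, 51.8 and 39.4 counts per 1000 shared counts in knockout, against 91.9, 63.0 and 94.5 in wild type (log2 fold change -0.85, SE 0.24, edgeR adjusted p = 0.00629). Sall1 had 763, 771 and 744 in knockout, against 997, 956 and 1120.5 in wild type (-0.43, SE 0.10, edgeR adjusted p = 0.00219). For both genes every knockout library lay below every wild-type library, as in 77.6% of all genes tested. Tmem119 had 56.5, 46.1 and 45.3 in knockout, against 36.9, 47.6 and 48.7 in wild type, with overlapping groups (0.15, edgeR adjusted p = 0.58). The microglia class had a median log2 fold change of -0.37 on this scale. The calls of P2ry12 and Sall1 held with any 1 library left out, and neither held with knockout libraries 2 and 3 both left out (adjusted p = 0.0971 and 0.0703).

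Within the shared class, whose members make up the scale, the values only say which genes took a larger part of the sum. Csf1r took 34.5% of the class sum in knockout, against 29.8% in wild type, and Laptm5 took 21.6% in knockout, against 19.2% in wild type. Ctss took 7.41% in knockout, against 11.0% in wild type. Cd68 took 4.62% in knockout, against 7.74% in wild type, and Trem2 2.66% in knockout, against 4.65% in wild type. Per shared count, Ctss (log2 fold change -0.57), Cd68 (-0.74) and Trem2 (-0.81) fell by the edgeR test, with adjusted p = 0.0119, 0.00962 and 0.0174. These were 3 of the 13 shared genes tested, a smaller share than the 73.9% of all genes tested that fell on this scale. Csf1r (0.21) and Laptm5 (0.18) did not pass, at adjusted p = 0.146 and 0.312. The Trem2 call was lost without knockout library 1, knockout library 2 or wild-type library 3, with an adjusted p of up to 0.0689. With the geometric mean of the shared genes as the scale, Cd68 alone of these 3 genes kept its call.

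The order of levels between genes was read per kilobase of exon. In Csmd3 knockout Sall1 was the highest member, at 10.9 ± 0.326 CPM per kb (SD, n = 3), followed by Pf4 at 7.48 ± 0.978. Stab1 (4.96 ± 0.502), Csf1r (4.53 ± 0.403), Tyrobp (4.49 ± 0.462), Laptm5 (4.31 ± 0.0907), Ctss (4.13 ± 0.189) and Mrc1 (3.98 ± 0.930) came next in knockout, and neighbours in that order lay within their SDs. In wild type Sall1 was again the highest, at 7.02 ± 0.634 CPM per kb, followed by Ctss at 2.93 ± 0.311, Fcrls at 2.24 ± 0.296 and Cd68 at 2.22 ± 0.182. Border macrophage genes stood low in that order: Stab1 was at rank 12 with 1.14 ± 0.184, Pf4 at 24 with 0.258 ± 0.240, Mrc1 at 25 with 0.124 ± 0.0133 and F13a1 at 28 with 0.0704 ± 0.0301 CPM per kb. In knockout the ranks of these genes were 3, 2, 8 and 10.

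**Figure D4:**
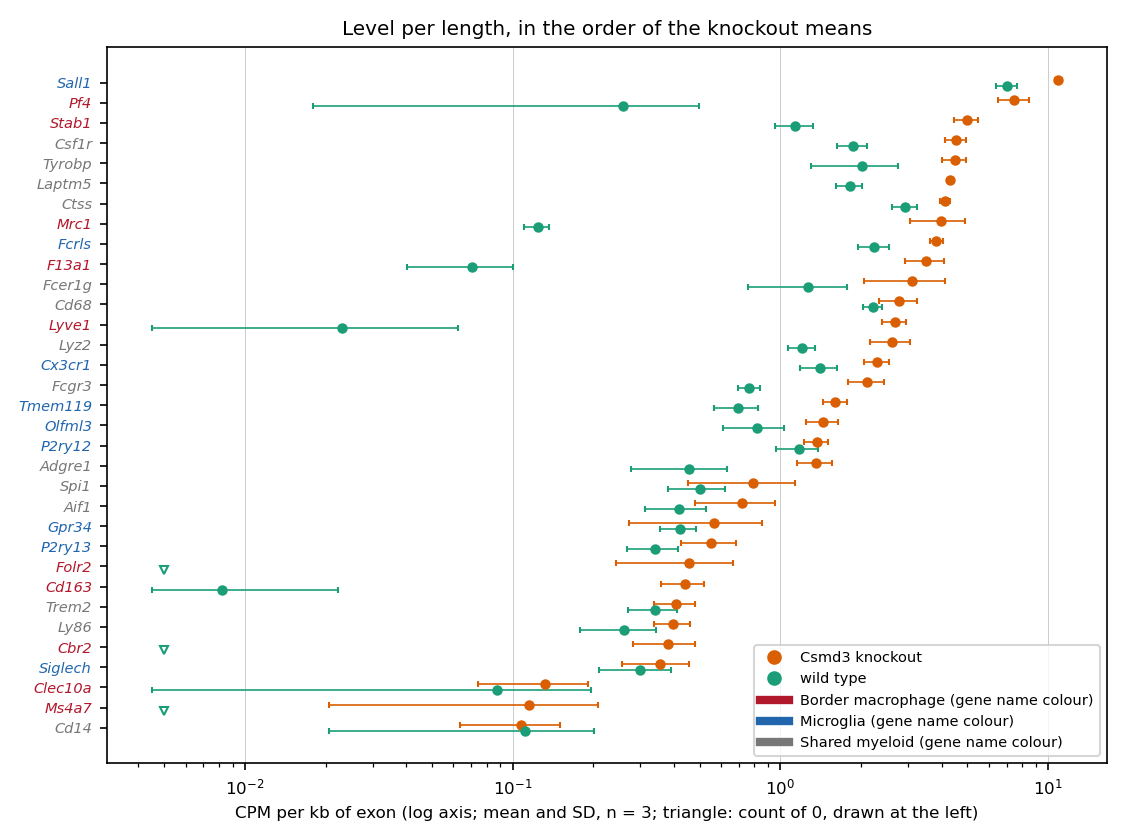
Mean level of each of the 33 genes in CPM per kb of exon on a log axis, with SD over 3 libraries, in the order of the Csmd3 knockout means; the knockout point is drawn above the wild-type point, gene names are coloured by class, and bars that would reach 0 are cut at the left edge. Pf4 is at 7.48 in knockout and 0.258 CPM per kb in wild type, whereas Sall1 is highest in both groups at 10.9 CPM per kb in knockout and 7.02 in wild type.

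Position in the genome and overlap with other genes were checked for each member. F13a1 and Ly86 lie 295 kb apart on chromosome 13, with log2 fold changes of 5.63 and 0.61. Fcer1g and Fcgr3 lie 165 kb apart on chromosome 1 and had 1.28 and 1.46, and P2ry12 and P2ry13 lie 5.39 kb apart on chromosome 3 and had 0.22 and 0.70. P2ry12 and P2ry13 lie inside Med12l, and Gpr34 inside Cask, each on the opposite strand. The sources used here do not say whether counting used strand, so reads of overlapping exons on opposite strands cannot be told apart. Folr2 shares 975 of its 1546 exon bases (63.1%) with the antisense gene Gm10602, which had 46, 64 and 48 deposited counts in knockout, against 16, 20 and 49 in wild type. Csf1r shares 15.1% of its exon bases with Hmgxb3, whose log2 fold change was -0.14 (edgeR adjusted p = 0.306).

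Markers of other cells of the meninges and vessels moved with the members. Beside the sum of border macrophage genes, whose knockout mean was 8.71 times the wild-type mean, the sum of meningeal fibroblast markers had a ratio of 28.3, and the lowest knockout library (535 CPM) was far above the highest wild-type library (25.6 CPM). The largest called differences in that list were those of Slc22a6, Slc6a13 and Aldh1a2, a pair of transporters and a retinoic acid synthesising enzyme, with log2 fold changes of 7.32, 7.30 and 6.28 (edgeR adjusted p = 0.00826, 2.57e-05 and 0.0144). The highest knockout library was library 1 for the fibroblast sum and library 3 for the border macrophage sum. Among blood endothelium markers 7 of 10 rose and 0 fell (437 to 542 CPM summed in knockout, 255 to 289 CPM in wild type), led by Cdh5 at 1.58. Among mural cell markers 6 of 8 rose and 0 fell (294 to 332 CPM in knockout, 170 to 187 CPM in wild type), led by Tagln at 3.30. Of the 5 lymphatic endothelium markers, Mmrn1 (3.47) and Pdpn (0.49) rose and Ccl21a was at 0 in all 6 libraries. The list summed to 48.1 to 53.3 CPM in knockout and 31.9 to 47.6 CPM in wild type. The part of these cells in the differences of the members was not tested.

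Markers of blood cells had overlapping sums. Of 7 erythroid genes, 0 passed the edgeR test, 1 was higher at an unadjusted p under 0.05 and 0 passed by DESeq2 or limma-voom. Their sum was 1885 to 2202 CPM in knockout and 1519 to 2104 CPM in wild type. Of 12 monocyte and neutrophil genes 2 were tested and 0 passed by edgeR, at an unadjusted p under 0.05, or by DESeq2 or limma-voom. The 12 summed to 0.397 to 0.975 CPM in knockout and 0.369 to 0.890 CPM in wild type, and Chil3, Ly6g and Elane were at 0 in all 6 libraries. In the choroid plexus, another site of border macrophages, the epithelial markers differed widely between the knockout libraries, as given above, while the border macrophage sum was 110, 105 and 138 CPM in the same libraries. Of the epithelial list Aqp1, a water channel, was the 1 gene of 5 tested that rose by the edgeR test (4.24, adjusted p = 0.00114). At an unadjusted p under 0.05 in that fit 4 of the 5 were higher, and 3 passed by DESeq2 and 1 by limma-voom. Ttr, named after its values were seen, had 27450 deposited counts over the knockout libraries, against 4 over the wild-type libraries. No wild-type library could bring Ttr past the filter, so these counts of genes carry no weight as support.

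**Figure D5:**
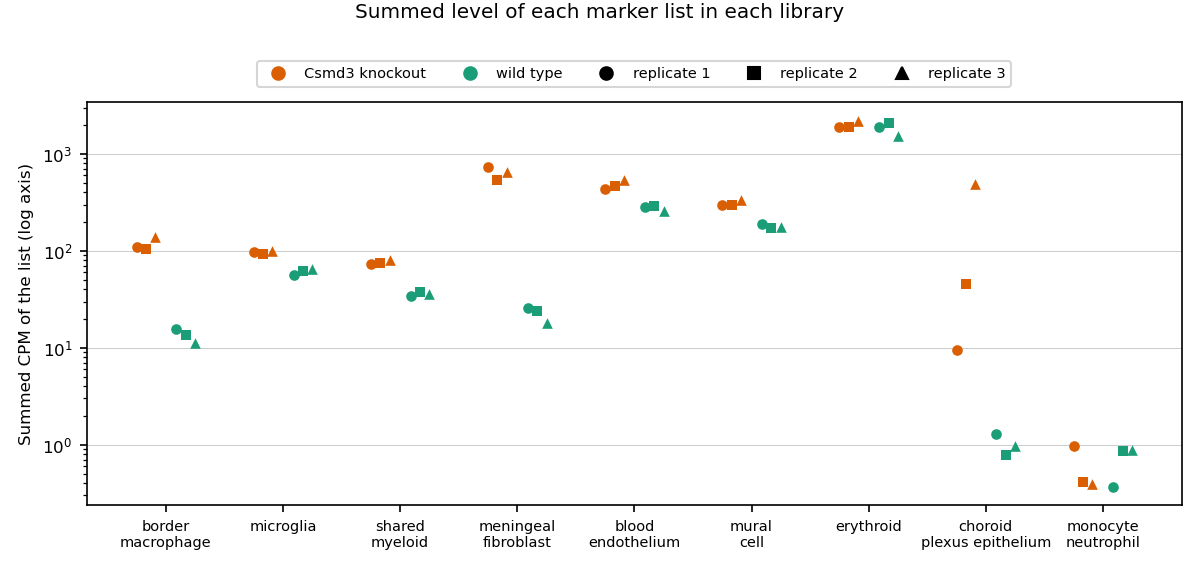
Summed CPM of marker lists in each library on a log axis, with Csmd3 knockout left of wild type and a symbol for each replicate. The border macrophage and meningeal fibroblast sums of the 2 groups are far apart (105 to 138 CPM in knockout against 11.3 to 15.6 CPM in wild type, and 535 to 727 CPM in knockout against 18.0 to 25.6 CPM in wild type), whereas the erythroid and the monocyte and neutrophil sums overlap and the choroid plexus sum spans 9.55 to 487 CPM within knockout.

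Other genes known from the same cells were read in the same fit. Of 16 further border macrophage genes 11 were tested, 5 rose and 0 fell by the edgeR test (1 was lower at an unadjusted p under 0.05, 1 by DESeq2 and 0 by limma-voom). Of all genes tested, 5.21% rose and 2.53% fell. The median of the 11 tested was 2.51 on the log2 scale. The summed CPM of all 16 had overlapping groups, at 150 to 199 in knockout and 147 to 175 in wild type, a ratio of 1.08. Knockout lay wholly above wild type for 6 tested genes and wholly below for 1, against 15.6% and 13.5% of all genes tested. Ms4a6c, a membrane protein of the same family as Ms4a4a, had 0.611, 0.616 and 0.902 CPM in knockout, against 0.134, 0.0689 and 0 CPM in wild type (edgeR adjusted p = 0.0468). Its ratio of 10.2 rests on 12 deposited counts in wild type and has an interval from 3.22 to 52.3 (Clopper-Pearson, 95%). Dab2, an endocytic adaptor named after its values were seen, had 24.1, 25.6 and 31.2 CPM in knockout, against 5.50, 3.79 and 4.94 CPM in wild type (2.51, SE 0.17, edgeR adjusted p = 4.09e-05). Ms4a4a and Ccl24, a membrane protein and a chemokine, had no wild-type count and were at least 8.64-fold and at least 6.69-fold higher in knockout. Ms4a6c, Ms4a4a and Ccl24 passed the filter only through the knockout libraries, so the count and median of this list carry no weight as support. Cd209b, Cd209d and Cd209f, lectins of the same family, were at 0 in all 6 libraries.

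Of 11 further microglia genes 0 passed the edgeR test, 4 were higher at an unadjusted p under 0.05, and 2 passed by DESeq2 and 0 by limma-voom. Their median log2 fold change was 0.56. Of 21 further shared myeloid genes 6 rose and 0 fell, and the median was 0.85. The largest were Ncf1, a subunit of the phagocyte oxidase (1.21, adjusted p = 0.0153 by edgeR), C1qa, a chain of complement C1q (1.17, adjusted p = 0.00375), and Cyba, another oxidase subunit (1.08, adjusted p = 0.0108).

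Ligands and receptors on which these cells depend formed the last group. Among 12 genes of CSF1R and TGF-beta signalling 11 were tested, 4 rose and 0 fell, with a median of 0.25. Il34, a ligand of the Csf1r receptor, had 3.07, 2.99 and 3.48 CPM in knockout, against 1.34, 0.999 and 0.698 CPM in wild type (1.65, SE 0.28, edgeR adjusted p = 0.00886). Csf1, the other ligand, rose by 0.71 on the log2 scale (adjusted p = 0.0333 by edgeR), and was named after its values were seen. Tgfbr2, a receptor subunit for TGF-beta, had 25.6, 23.7 and 27.5 CPM in knockout, against 9.72, 9.37 and 7.49 CPM in wild type (1.53, edgeR adjusted p = 0.0002). Tgfb1, a ligand that microglia are known to need, rose by 0.81 on the log2 scale (adjusted p = 0.0208 by edgeR). In the pathway downstream of Tyrobp and Fcer1g, 1 of 7 tested genes rose and 0 fell: Inpp5d, a lipid phosphatase that restrains it, at 1.09 (adjusted p = 0.0317 by edgeR). All 7 had a positive log2 fold change, with a median of 1.06. At an unadjusted p under 0.05 in the edgeR fit 6 were higher, and 3 passed by DESeq2 and 0 by limma-voom. Among all genes tested, 5.21% rose by the edgeR test. Btk, named after its values were seen, had only 12 deposited counts over the wild-type libraries.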

How the data were processed

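RNA from the cortex of 3 Csmd3 knockout and 3 wild-type embryos was sequenced on an Illumina instrument. Per the labels' protocols, total RNA was taken up in TRIzol and made into libraries. The tools named, without roles, in the submitters' processing notes are HISAT2 2.0.5, StringTie 1.3.4, Trim Galore 0.4.4 and FastQC 0.11.9, and the build is mm10. The sources used here do not name the counting program, its annotation or its strand setting.

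The authors deposited a table of whole-number estimated counts per gene, treated as such because low values pile up at 4: in wild-type library 1, 1298 genes had a count of 4, against 492 with 3 and 318 with 5. A count of 4 therefore has about the precision of 1 fragment. The deposited estimated counts needed no rounding. Rows were named with GENCODE M21 (55141 of 55401 rows, 54349 by an identical versioned identifier), which also gave coordinates, counted from 1, and exon lengths. The unnamed rows took up to 0.0238% of the counts in a library.

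Groups came from the genotype in the labels. Genes were filtered by filterByExpr (about 0.167 CPM in at least 3 libraries), scaled by TMM and compared by the robust quasi-likelihood F-test of edgeR 4.0.16 in R 4.3.3, with Benjamini-Hochberg adjustment over all 19844 genes tested and a threshold of 0.05. Fold changes are log2 values of knockout over wild type, and SE was taken as their size over the root of the F statistic. Genes with no count in wild type are bounded by a floor of 3 fragments, or 12 deposited counts, over that group. Neither floors nor intervals cover more than counting error, as PCR copies are not independent molecules. A second fit replaced the library size by the summed count of the 14 shared genes. The scripts were tested on simulated counts. The alternatives were DESeq2 1.42.0, limma-voom (limma 3.58.1), other scalings, filters and thresholds, counts divided by 4, a replicate block and leaving out libraries. The members and all gene lists were chosen with earlier results of these data known. All 33 members are accounted for, and of every other list up to 3 genes with the largest called fold change are named. Genes listed at 0, neighbours of members and cell type markers are named beside them, and any other gene is marked as chosen after its values were seen.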

Additional observations from a re-analysis of the deposited data

How the results depend on the processing

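Across the alternatives, single-gene results on the CPM scale stayed on the same side of the threshold and in the same direction in 460 cases, lost their call in 69, gained one in 3 and changed sign in 2. Per shared count the cases were 494, 15, 13 and 12. With 1 library left out at a time, the number of genes called ran from 472 to 1402 higher and 137 to 956 lower (main values 1033 and 503), of border macrophage genes from 5 to 9, of microglia genes from 1 to 5 and of shared genes from 4 to 5. Median log2 fold changes ran from 5.27 to 6.92 for border macrophage and 0.95 to 1.04 for shared genes. Per shared count, the medians ran from 4.19 to 6.26 for border macrophage and -0.13 to -0.012 for shared genes, 2 to 4 microglia genes were lower, and 0 to 1 shared genes were higher. The border to microglia ratio ran from 4.90 to 6.14-fold.

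With knockout libraries 2 and 3 both left out, 262 genes were higher and 43 lower, with 4 border macrophage, 0 microglia and 2 shared genes higher and a shared median of 0.96. Per shared count that fit gave 0 microglia and 1 shared genes lower and a shared median of -0.060. At a threshold of 0.01, 418 genes were higher and 89 lower, with 6 border macrophage, 1 microglia and 3 shared genes higher, and 1 shared gene was lower per shared count. A filter at 1 CPM and counts divided by 4 each gave 6 border macrophage genes higher. Cbr2, Ms4a7, Folr2 and Clec10a did not reach the filter in these settings, so the 6 were all the genes of the class tested. The border macrophage medians in these settings cover the same 6 genes. DESeq2 called 921 genes lower. Without a filter the shared median was 0.95, or -0.11 per shared count, and with a filter at 1 CPM the shared median was 1.13 and the border macrophage median per shared count 4.25. Counts divided by 4 gave border macrophage medians of 5.23, or 4.21 per shared count. With Csf1r alone as the scale, 5 microglia genes were lower, and the medians were -0.59 for microglia and -0.15 for shared genes. With the geometric mean of the shared genes as the scale, 1 microglia gene was lower, 2 shared genes were higher and 1 lower, and the medians were -0.19 for microglia and 0.23 for shared genes. Leaving Stab1 and Sall1 out of the sums, a choice made after seeing the data, gave a border to microglia ratio 22.5-fold higher in knockout, and sums per kilobase of exon, also chosen after seeing the data, 8.77-fold.

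The results that changed sign rest on small fold changes or few counts. Gpr34 ran from -0.085 (without knockout library 3) to 0.63 over the fits that leave out 1 library, and was at -0.098 without knockout libraries 2 and 3. Per shared count, Clec10a ran from -0.85 to 1.37 (without wild-type library 2) over such fits, and was at 0.13 by limma-voom and 0.23 with the replicate block. On the same scale Tyrobp ran from -0.047 to 0.38, with -0.0048 without knockout library 1, Lyz2 from -0.10 to 0.19, and Fcer1g from -0.012 to 0.54. With Csf1r as the scale, Tyrobp was at -0.097, Lyz2 at -0.15, Tmem119 at -0.052 and Laptm5 at -0.045. Olfml3 was at 0.016 per shared count without knockout libraries 2 and 3. The causes of these changes were not tested.

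Both groups carry replicate numbers 1 to 3, but same-numbered libraries did not deviate together: the correlations of their deviations were 0.057, 0.0058 and -0.0080. The numbers were therefore not read as pairs. A fit with the replicate block called 686 genes higher and 255 lower, with 6 border macrophage, 1 microglia and 4 shared genes higher, and it has fewer degrees of freedom. Lyve1, Cbr2, Ms4a7, Tmem119, Olfml3, Cx3cr1, Fcrls, Tyrobp and Lyz2 were not called in it.

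Depth limits the genes with under 1 CPM, whose counts rest on few fragments, and 3 libraries in each group limit every test.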

Other observations

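Genes of macrophage activation and recruitment, which the classes above do not cover, were read in the same edgeR fit. Of 12 genes of activated microglia 8 were tested, 2 rose and 0 fell, and the median log2 fold change was 0.31. Spp1, the secreted protein osteopontin, had 2.37, 1.45 and 2.44 CPM in Csmd3 knockout, against 0.318, 0.913 and 0.314 CPM in wild type (2.01, SE 0.46, edgeR adjusted p = 0.0293). Cd63, a lysosomal and endosomal membrane protein that many cell types make, rose by 0.67 on the log2 scale (SE 0.10, edgeR adjusted p = 0.00432). Of 10 chemokines 6 were tested, 2 rose and 0 fell. Cxcl12, a chemokine of the meninges that guides migrating neurons, had 57.2, 59.6 and 63.6 CPM in knockout, against 19.5, 16.3 and 18.9 CPM in wild type (1.72, SE 0.10, edgeR adjusted p = 1.77e-05). Cxcl10, an interferon-induced chemokine, had 0.262, 0.348 and 0.198 CPM in knockout against no count in wild type. That puts Cxcl10 at least 3.97-fold higher (edgeR adjusted p = 0.0304). It passed the filter only through the knockout libraries, so its call carries no weight as support.

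Genes of antigen-presenting and lymphoid cells were read in the same fit. Of 5 genes of MHC class II, through which antigen is shown to T cells, 2 were tested and 0 passed by edgeR, at an unadjusted p under 0.05, or by DESeq2 or limma-voom. Their sum was 2.13 to 2.31 CPM in knockout and 1.52 to 2.24 CPM in wild type. The same held of 2 tested dendritic cell genes of 5, with Flt3, Cd209a and Xcr1 at 0 in all 6 libraries and a sum of 8.20 to 10.03 CPM in knockout and 7.82 to 8.19 CPM in wild type, nearly all of it Zbtb46, a transcription factor that endothelial cells also express, and of 1 tested mast cell gene of 7. Of 6 lymphocyte genes 0 reached the filter on low counts, and Cd3e, Cd3g, Ms4a1 and Nkg7 were at 0 in all 6 libraries. Of 7 cortical neuron genes 0 rose (1 was higher at an unadjusted p under 0.05) and 1 fell by the edgeR test: Tubb3, a neuronal tubulin, fell by 0.42 on the log2 scale (adjusted p = 0.018). In the same list 2 were lower at an unadjusted p under 0.05, 2 by DESeq2 and 1 by limma-voom. Knockout lay wholly below wild type for 4 of the 7 and wholly above for 1, against 13.5% and 15.6% of all genes tested. The neuron sum was 4277 to 4722 CPM in knockout and 4786 to 5580 CPM in wild type, without overlap. In the lists with 0 genes lower by edgeR, limma-voom also called 0 lower, DESeq2 called 1 among the further border macrophage genes and 0 elsewhere, and at most 1 gene of a list was lower at an unadjusted p under 0.05.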
